A study of Rattus norvegicus with 8 samples.

Results

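Tanycytes are the elongated glia that line the floor and lower walls of the third ventricle in the hypothalamus. The genes described here are 6 genes known to be expressed in them: Gpr50, Crym, Vim, Nes, Rarres2 and Rax. They were found on the array by name, as every non-control probe that carries one of these gene names. This gave 8 probes on 17 spots per array, out of 30367 probes and 26269 gene names. Nes and Rax had 2 probes each, the single Vim probe was printed on 10 spots, and the other genes had 1 probe each.

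The measured RNA came from the hypothalamus of lactating Wistar rat dams at postpartum day 7. The tested dams were exposed to TCDD (4 dams, TCDD 1 to TCDD 4) and the others were controls (4 dams, control 1 to control 4), with 1 array per dam. TCDD, the most potent of the dioxins, acts by binding the aryl hydrocarbon receptor. The sources used here do not give its dose, route or time of exposure, the ages of the dams or what the controls received.

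Tanycytes send long processes from the ventricle to the portal vessels and the arcuate nucleus, and they take part in barrier function, in the local activation of thyroid hormone and in the sensing of nutrients. In seasonal rodents their gene expression changes with day length. A subset keeps features of neural progenitors into adult life. None of the 6 genes belongs to tanycytes alone: Vim is also made by endothelial, meningeal and ependymal cells, Nes by endothelial cells, Rarres2 by fibroblasts and Crym by neurons. The RNA was of whole tissue, so fewer cells of a type and less RNA per cell cannot be told apart.

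On single arrays, 61.7% to 66.7% of probes passed the scanner's test for signal well above background, and log2 signals correlated at 0.986 to 0.991 between arrays. TCDD 1 and control 1 were the dimmest arrays, with a 75th percentile signal of 806 and 756 against 973 to 1077 on the others. Their median CV of repeated probes was also the highest (5.15% and 5.43%, against 3.46% to 4.04%). Its part in the values of TCDD 1 and control 1 was not tested. All TCDD samples lay on 1 slide in 1 scan and all controls on another slide in another scan, so slide, scan and group cannot be told apart. The number of arrays limits the precision of every value. Neuropeptide genes of the mediobasal hypothalamus were measured in 7 of 7 cases, among them Agrp and Pomc, as the tissue label says. TCDD 2 stood apart in meningeal fibroblast markers and control 4 in neuropeptide genes. These arrays also had the highest summed signals of pituitary and of choroid plexus markers in their groups. Among the choroid plexus markers tested, only Ttr was highest in both. The fold changes of the tested tanycyte genes and the correlations among Vim, Nes and Rarres2 are given with and without TCDD 2 and control 4. The correlations of Crym and of the nearest genes are not given without both.

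The probes that measured Gpr50 and Vim are shown first, because they say which stretch of each gene the values below stand for. They lie at chrX:157106051-157106110 and chr17:87851390-87851449 of the rn4 build, both on the plus strand, as the design in the file headers gives them.
Gpr50: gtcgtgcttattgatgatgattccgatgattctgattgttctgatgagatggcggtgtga
Vim: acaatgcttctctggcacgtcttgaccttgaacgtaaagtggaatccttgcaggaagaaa
The Nes probes lie at chr2:180060869-180060928 and chr2:180060450-180060509, and the Rarres2 probe spans chr4:76662104-76662442 on the minus strand, a span of 339 bases for a probe of 60. The Rax probes lie at chr18:62570726-62570785 and chr18:62570715-62570774. They share 49 coordinates, at which 48 bases are the same and 1 differs (G15A, counted from the 5′ end of the probe with the lower start, whose base is named first). The design lists the Crym probe as unmapped. No annotation of rn4 was used, so exons, introns and UTRs are not named.

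Vim, Nes and Rarres2 varied together across the arrays, as described below, and their promoters are printed so that they can be read side by side. Each is the 300 bases from 250 before to 50 after the gene's start, from RefSeq on GRCr8, at chr17:81577011-81577310 (plus strand), chr2:175736338-175736637 (plus strand) and chr4:78856359-78856658 (minus strand). Capitals mark a match, on either strand, to TATAAA, to the letters CCAAT or to the dioxin response element. That element, at which the aryl hydrocarbon receptor binds, was searched as TNGCGTG.
Vim: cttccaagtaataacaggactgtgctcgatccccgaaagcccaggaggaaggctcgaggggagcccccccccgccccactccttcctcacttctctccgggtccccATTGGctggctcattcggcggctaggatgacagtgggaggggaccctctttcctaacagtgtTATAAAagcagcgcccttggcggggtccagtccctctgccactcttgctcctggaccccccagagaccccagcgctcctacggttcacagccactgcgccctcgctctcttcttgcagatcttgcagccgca
Nes: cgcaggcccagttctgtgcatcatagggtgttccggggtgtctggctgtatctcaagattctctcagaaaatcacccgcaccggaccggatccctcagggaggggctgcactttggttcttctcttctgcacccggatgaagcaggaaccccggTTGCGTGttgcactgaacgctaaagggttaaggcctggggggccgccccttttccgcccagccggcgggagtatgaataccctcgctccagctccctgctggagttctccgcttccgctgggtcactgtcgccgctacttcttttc
Rarres2: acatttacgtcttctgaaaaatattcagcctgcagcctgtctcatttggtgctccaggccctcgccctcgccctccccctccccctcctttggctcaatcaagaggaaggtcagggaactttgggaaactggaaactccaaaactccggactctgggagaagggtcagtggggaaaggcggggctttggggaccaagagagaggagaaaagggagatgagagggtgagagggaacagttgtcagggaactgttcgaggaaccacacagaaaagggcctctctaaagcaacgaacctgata
The promoter table held 5 of the 6 genes. TNGCGTG was in the Nes promoter, 96 bases before the start, and in 4.9% of all 33469 promoters of that length. Its letters were in none of the windows of Gpr50, Vim, Rarres2 and Rax. The shorter GCGTG within it had 2 matches in the Gpr50 window and 1 in that of Nes, and was in 29.7% of all promoters. TATAAA was in the Vim window alone among the 5, 82 bases before the start, and in 14.2% of all promoters. CCAAT was in those of Vim and Gpr50 and in 37.5% of all promoters. GGGCGG, the GC box letters, was in the windows of Gpr50, Vim and Nes and in 33.1% of all promoters, and none of these motifs was in that of Rarres2. GC content was 62.0% for Vim, 60.0% for Nes and 53.7% for Rarres2. The last 27 bases of the Rarres2 window are also the start of its array probe.

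None of the 5 tanycyte genes that could be tested passed the test between TCDD and control dams. Vim, Nes, Crym and Rarres2 varied from dam to dam by more than most genes, with high values in TCDD 2, in control 4 or in both, and the 2 groups overlapped in every gene. Rax, the homeobox gene that defines the cell type, lay near background. Values below are log2 signals relative to the 75th percentile of the same array, where 0 is that percentile, and are comparable between arrays for 1 probe but not between probes.

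Vim encodes vimentin, the main intermediate filament of tanycyte processes. Its log2 signals were 0.01, 1.12, -0.16 and -0.01 in TCDD 1 to 4, against 0.01, 0.10, 0.16 and 0.87 in control 1 to 4. TCDD 2 and control 4 were high, the other 6 arrays lay close together, and the groups overlapped. The 9 or 10 spots of the probe used on an array varied with an SD of 0.03 to 0.07, so the gap between these arrays was far wider than the spread between spots.

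Nes encodes nestin, an intermediate filament of neural progenitors. Its brighter probe read -2.08, -1.14, -1.74 and -1.59 in TCDD 1 to 4, against -2.01, -1.62, -1.72 and -1.01 in control 1 to 4. TCDD 2 and control 4 were again the highest and replicate 1 the lowest in each group. The second Nes probe gave -3.69, -2.76, -3.50 and -3.18 in TCDD 1 to 4, against -3.51, -3.13, -3.35 and -2.58 in control 1 to 4, with the same arrays at the top and bottom of each group.

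Rarres2 encodes chemerin, a secreted chemoattractant and adipokine. It measured -2.22, -1.02, -2.21 and -2.26 in TCDD 1 to 4, against -2.23, -1.75, -1.71 and -1.50 in control 1 to 4. TCDD 2 was the highest of all arrays, and control 1 lay with the other TCDD arrays, below control 2, 3 and 4.

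Crym encodes mu-crystallin, which binds thyroid hormone in the cytosol. Its log2 signals were 2.89, 3.18, 2.44 and 3.14 in TCDD 1 to 4, against 2.79, 2.66, 2.78 and 3.86 in control 1 to 4. Control 4 was high, TCDD 3 was the lowest array, and the groups overlapped.

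Gpr50 is an orphan receptor related to the melatonin receptors, and it does not bind melatonin. Its log2 signals were -5.38, -5.44, -5.87 and -5.22 in TCDD 1 to 4, against -4.88, -5.49, -5.53 and -5.43 in control 1 to 4. The probe was not well above background in TCDD 3, and was in the other 7 arrays. Control 1 was the highest array, and TCDD 2 and control 4, high for Vim and Nes, were near the middle.

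Rax encodes the retina and anterior neural fold homeobox factor, which tanycytes keep in adult life. The probe with the lower start read -6.48, -5.15, -6.27 and -5.99 in TCDD 1 to 4, against -5.82, -6.00, -6.31 and -4.36 in control 1 to 4, and was well above background in TCDD 2 and 4 and in control 1, 2 and 4. The other read -7.69, -5.31, -8.55 and -6.74 in TCDD 1 to 4, against -5.43, -5.51, -7.24 and -4.68 in control 1 to 4. It was well above background in TCDD 2 and in control 1, 2 and 4. Both probes were highest in control 4, with TCDD 2 the highest TCDD array. Neither was well above background throughout a group, so Rax was not in the main test and no fold is given.

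**Figure D1:**
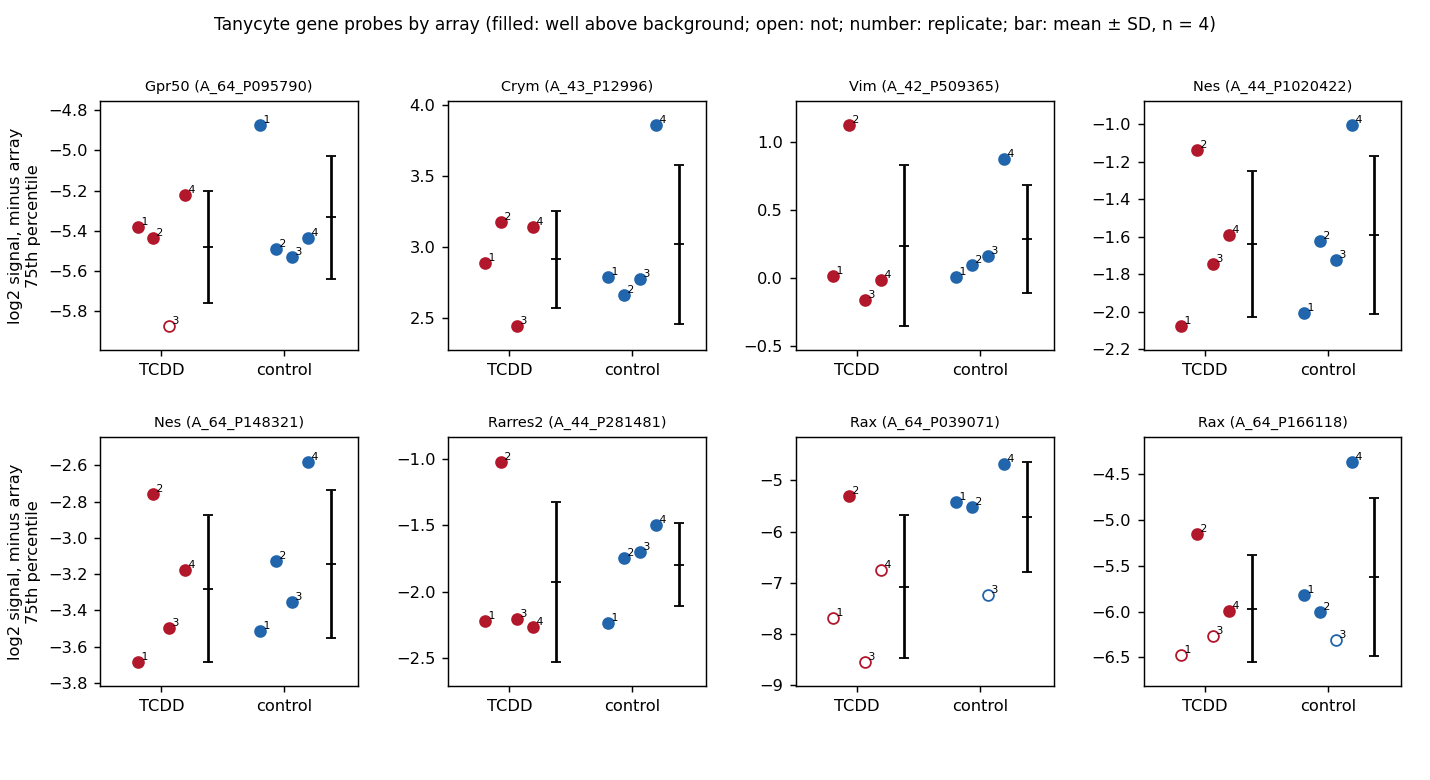
Log2 signal minus the array's 75th percentile (vertical axis, own range per panel) for each of the 8 probes in 4 TCDD and 4 control dams. Numbers are replicates, filled points are well above background, and bars are mean ± SD (n = 4 each). TCDD 2 and control 4 are the top points of their groups for Vim, both Nes probes, Rarres2 and both Rax probes.

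The comparison of TCDD with control dams asks whether dioxin exposure goes with a change in these genes. Of the 5 tested, 0 passed limma's test at an adjusted p under 0.05, where 0.0241% of all 16572 genes did. At an unadjusted p under 0.05 the count was also 0 of 5, against 10.9% of all genes (8.24% higher and 2.62% lower in TCDD dams). The groups did not overlap in 0 of 5, against 7.11% of all genes (1.58% lower in TCDD dams).

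Vim averaged 0.24 ± 0.59 in TCDD and 0.29 ± 0.40 in control dams (SD, n = 4 each), and the log2 fold change was -0.04 with an SE of 0.31 (limma adjusted p = 0.981). Nes averaged -1.64 ± 0.39 in TCDD and -1.59 ± 0.42 in control dams, a log2 fold change of -0.05 ± 0.25 (limma adjusted p = 0.975). Rarres2 averaged -1.93 ± 0.60 in TCDD and -1.80 ± 0.31 in control dams, a log2 fold change of -0.13 ± 0.29 (limma adjusted p = 0.928). In all 3 genes the SE was larger than the difference. Crym averaged 2.92 ± 0.34 in TCDD and 3.02 ± 0.56 in control dams, with a log2 fold change of -0.11 ± 0.28 (limma adjusted p = 0.944). Gpr50 averaged -5.48 ± 0.28 in TCDD and -5.33 ± 0.31 in control dams, with a log2 fold change of -0.15 ± 0.18 (limma adjusted p = 0.851). The second Nes probe gave a log2 fold change of -0.14.

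All 5 log2 fold changes were below 0, with a median of -0.11, where 47.3% of all genes were below 0 and their median was 0.0075. Gpr50 passed the filter through the control group alone, with 3 TCDD and 4 control arrays well above background. Its sign is therefore not free of the filter. The 95% intervals show what these arrays leave undecided. They ran from -0.75 to 0.66 for Vim, from -0.62 to 0.52 for Nes, from -0.80 to 0.54 for Rarres2, from -0.76 to 0.54 for Crym and from -0.56 to 0.27 for Gpr50. In 4 of the genes the sign turned when single dams were left out. Without control 4 the log2 fold change was 0.17 for Crym, 0.15 for Vim and 0.15 for Nes, and without control 1 it was 0.0055 for Gpr50. The sign also turned for Crym without TCDD 3 (0.05), for Vim without TCDD 1 (0.03), TCDD 3 (0.09) or TCDD 4 (0.04), and for Nes without TCDD 1 (0.10). Without TCDD 2 the log2 fold change was -0.43 for Rarres2 and -0.34 for Vim. With TCDD 2 and control 4 both left out, an alternative chosen after seeing the data, 0 of the 5 were called and the values were 0.08 for Crym, -0.14 for Vim, -0.02 for Nes, -0.33 for Rarres2 and -0.19 for Gpr50.

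**Figure D2:**
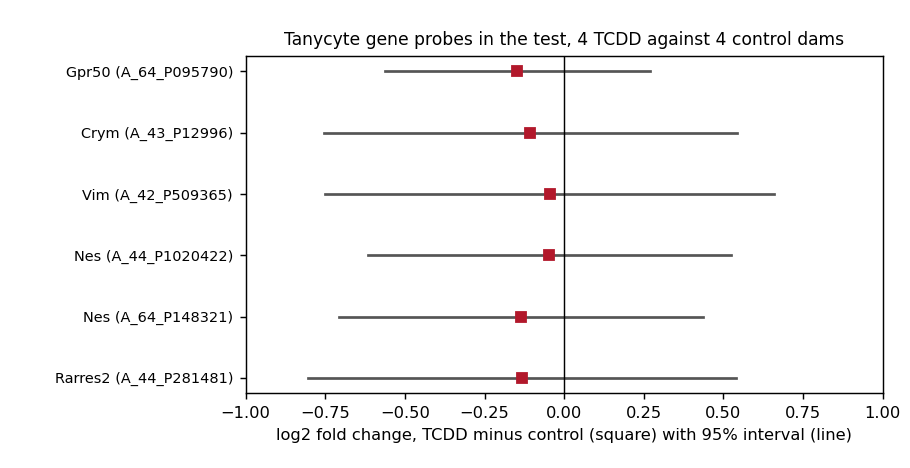
Log2 fold change, TCDD minus control (horizontal axis), with its 95% interval from limma for the 6 probes that passed the filter on dim signals. Every interval includes 0, and every point lies between -0.15 and -0.04.

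The 5 tested genes were more variable between dams of the same group than most of the array. The pooled SD within groups was 0.50 for Vim, 0.48 for Rarres2, 0.46 for Crym, 0.41 for Nes and 0.29 for Gpr50 on the log2 scale, where the median gene had 0.12. For Vim, 96.5% of tested genes had a smaller SD, and for Gpr50 it was 88.5%. From the lowest to the highest array, Crym spanned 2.66-fold, Vim 2.43-fold, Rarres2 2.36-fold and Nes 2.10-fold. No such fold is given for Gpr50, whose lowest array, TCDD 3, was not well above background and also enters its SD.

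Vim, Nes and Rarres2 varied together across the 8 dams. All 6 pairs among the 4 genes well above background on every array correlated above 0. Of these, 3 passed an exact permutation test over all 40320 pairings with adjustment over the 6 pairs. How often other gene pairs reach such r on these arrays was not counted. The tanycyte genes were chosen with earlier results of these data known. Vim and Rarres2 correlated at r = 0.914 (2-sided exact permutation p = 0.000769, adjusted p = 0.00461; Spearman rho = 0.857, adjusted exact p = 0.0643). Without TCDD 2 and control 4, the arrays farthest from the Vim median, r was 0.767 over 6 arrays. Vim and Nes correlated at r = 0.855 (exact permutation p = 0.0185, adjusted p = 0.0370; rho = 0.571, adjusted exact p = 0.205). Without the same arrays r was 0.099, so this relation rests on TCDD 2 and control 4. Over all tested genes, too, these arrays deviated together from their group means (r = 0.331). Nes and Rarres2 correlated at r = 0.797 (exact permutation p = 0.0165, adjusted p = 0.0370; rho = 0.571, adjusted exact p = 0.205), and at 0.419 without those arrays, so this relation rests on them too. With 1 array left out, Vim with Nes missed the threshold without TCDD 1, TCDD 2 or any single control (r from 0.793 to 0.882, adjusted exact p from 0.0512 to 0.115). Nes with Rarres2 missed it without TCDD 1, TCDD 2, TCDD 3 or any single control (r from 0.731 to 0.828, adjusted exact p from 0.0515 to 0.115). Vim with Rarres2 passed with any 1 array left out.

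Crym went with Nes at r = 0.739 (adjusted exact p = 0.0504; rho = 0.595, adjusted exact p = 0.205), with Vim at 0.729 (adjusted exact p = 0.0513; rho = 0.548, adjusted exact p = 0.205) and with Rarres2 at 0.468 (adjusted exact p = 0.256; rho = 0.262, adjusted exact p = 0.536). Without TCDD 3 and control 4, the farthest for Crym, these were 0.580, 0.552 and 0.264. By rank correlation 0 of the 6 pairs passed. With each value centred on its group mean, which removes any shift between the slides, r was 0.919 for Vim and Rarres2, 0.855 for Vim and Nes, and 0.798 for Nes and Rarres2. A group has 4 arrays, too few for a correlation within its own slide.

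**Figure D3:**
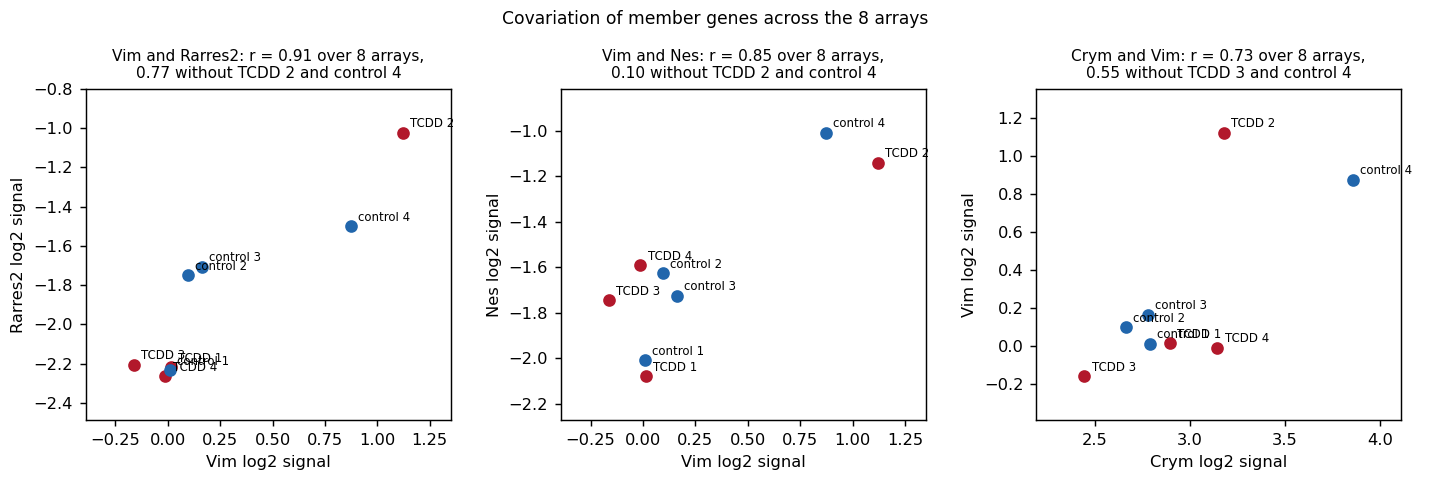
Log2 signals of pairs of genes on the 8 arrays, 1 point per dam, TCDD dams in red and control dams in blue. TCDD 2 and control 4 form the upper right corner for Vim with Rarres2 and for Vim with Nes. The other 6 arrays keep a slope for Rarres2 (r = 0.767) and have r = 0.099 for Nes.

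The genes whose signals ran most like each of the 4 were ranked by Pearson's r over the 8 arrays among 11031 named genes well above background on all of them. They are a description, since they were picked for their r. Nearest to Vim were Ptpn6, a tyrosine phosphatase of blood cells, at 0.988, Rab13, a small GTPase, at 0.978 and Ripk3, a kinase of necroptosis, at 0.978. Nearest to Rarres2 were Colec12, a scavenger receptor of the collectin family, at 0.995, Lamc1, a laminin chain, at 0.993 and Tnnt2, a troponin, at 0.993. Their log2 fold changes were -0.22, -0.05 and -0.32. Nearest to Nes were Anxa4, an annexin, at 0.975, Cnn3, a calponin, at 0.974 and Zfand3, a zinc finger gene, at 0.970. Nearest to Crym were Utrn, the dystrophin relative utrophin, at 0.965 and the glutathione transferases Gsta3 at 0.956 and Mgst1 at 0.946.

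Around these genes, limma called 0 genes in each of the 6 neighbouring lists. At an unadjusted p under 0.05 the counts were 2 of 9 tested genes for thyroid hormone and 1 of 14 for chemerin and retinoids. They were 1 of 7 for filaments and 0 for the others, where 10.9% of all genes reached that level. Of the thyroid hormone list, which covers transport, conversion and receptors, 9 of 10 genes were tested. Of these, 2 had fold changes above 0 and 7 below, with a median of -0.13 against 0.0075 for all genes. Among the 7, Hr passed the filter through the control group alone, with 3 TCDD and 4 control arrays well above background. Dio2, the deiodinase by which tanycytes activate thyroid hormone, read -5.28, -4.49, -4.80 and -5.28 in TCDD 1 to 4, against -4.56, -5.09, -4.79 and -4.87 in control 1 to 4, and its groups overlapped (log2 fold change -0.13 ± 0.19, limma adjusted p = 0.878). The 2 genes of the list at an unadjusted p under 0.05 did not pass after adjustment. Klf9, a thyroid hormone target, averaged 0.77 ± 0.15 in TCDD and 0.99 ± 0.05 in control dams (log2 fold change -0.23, limma adjusted p = 0.332). Trhde, the enzyme that degrades thyrotropin-releasing hormone, averaged -2.64 ± 0.04 in TCDD and -2.50 ± 0.09 in control dams (log2 fold change -0.14, limma adjusted p = 0.442).

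Of the list of chemerin receptors and retinoid handling, 14 of 18 genes were tested, 6 above 0 and 8 below (median -0.02). Ccrl2, which binds chemerin without signalling, was the sole member at an unadjusted p under 0.05. It read -4.44, -4.59, -4.57 and -4.19 in TCDD 1 to 4, against -4.66, -4.93, -4.89 and -4.80 in control 1 to 4. Every TCDD array lay above every control array. The groups did not overlap in 1 of the 14 genes tested, against 7.11% of all genes. The log2 fold change of 0.37 ± 0.10 for Ccrl2 did not pass the threshold (limma adjusted p = 0.229). The signalling chemerin receptor Cmklr1 was well above background on 1 of 8 arrays and Gpr1 on 3 of 8, so neither was tested.

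The other intermediate filament and linker genes were all tested, 7 of 7, with 3 above 0 and 4 below (median -0.08). Gfap, the filament of astrocytes and of some tanycytes, had a log2 fold change of -0.17 ± 0.29 (limma adjusted p = 0.905). Ina, a neuronal filament, averaged 2.86 ± 0.06 in TCDD and 3.06 ± 0.11 in control dams (log2 fold change -0.20, unadjusted p = 0.0194, limma adjusted p = 0.335). Of the transcription factors and signals of tanycytes and progenitors, 11 of 15 were tested, 4 above 0 and 7 below (median -0.0037). Lhx2, a factor of tanycyte identity, differed by 0.02 ± 0.21 (limma adjusted p = 0.985), and Sox2, the progenitor factor, by -0.0037 ± 0.12 (limma adjusted p = 0.997). The smallest p there was that of the growth factor receptor Fgfr1 (log2 fold change -0.09, limma adjusted p = 0.654).

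Of melatonin receptors and protein partners of GPR50, 4 of 6 were tested and all 4 lay above 0 (median 0.05). Mtnr1a, a melatonin receptor, had a log2 fold change of 0.0011 ± 0.21 (limma adjusted p = 0.999), and Kat5, an acetyltransferase that binds part of GPR50, one of 0.10 ± 0.05 (limma adjusted p = 0.593). Of the other genes enriched in tanycytes, 17 of 19 were tested, 11 above 0 and 6 below (median 0.04). The smallest p there was that of Gja1, the gap junction protein connexin 43, at 0.19 ± 0.10 (limma adjusted p = 0.533).

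Markers of other cells were read on the same arrays, as summed linear levels relative to the 75th percentile, and limma called 0 genes in each list. At an unadjusted p under 0.05 were 3 of 4 red blood cell genes and 2 of 11 ependymal markers, against 10.9% of all genes. So was 1 of 3 choroid plexus markers tested, and the count was 0 in the other lists. The ependymal markers were Mia and Hydin. Hydin passed the filter through the control group alone, with 1 TCDD array and 4 control arrays well above background. Meningeal fibroblast markers, 8 of 8 tested, summed to 2.83, 20.8, 2.99 and 3.27 in TCDD 1 to 4, against 3.64, 8.64, 9.06 and 9.94 in control 1 to 4. TCDD 2 was highest, control 2, 3 and 4 followed, and the low arrays were TCDD 1, 3 and 4 and control 1, the same split as for Rarres2. All 8 markers had a fold change below 0 (median -0.40), where 47.3% of all genes did. Among the 8, Lum passed the filter through the control group alone, with 3 TCDD and 4 control arrays well above background. The smallest p was that of Ogn, a proteoglycan of connective tissue (log2 fold change -1.04 ± 0.97, limma adjusted p = 0.788). The part of meningeal RNA in the Rarres2 and Vim values was not tested.

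Neuropeptide genes of the mediobasal hypothalamus, 7 of 7 tested, summed to 28.2, 37.5, 28.9 and 25.8 in TCDD 1 to 4, against 28.3, 26.4, 26.0 and 46.2 in control 1 to 4. The sum was highest in control 4 and next in TCDD 2, the order of Nes and of Crym. Agrp, Npy and Pomc had this order too, and Ghrh had TCDD 2 (0.57) above control 4 (0.54). The others differed. Cartpt was highest in TCDD 1 (2.87), and Tac3 was lowest of all arrays in TCDD 2 (1.63). Kiss1 was highest in control 4 (-3.52), with TCDD 2 the lowest TCDD array (-4.40). In this list 4 genes lay above 0 and 3 below, with the smallest p for Ghrh (log2 fold change 0.32, limma adjusted p = 0.517). Pituitary and pars tuberalis markers, 3 of 6 tested, ranged from 0.613 to 42.7 in TCDD and from 0.324 to 34.4 in control dams, again highest in TCDD 2 and control 4, with TCDD 4 also high at 28.4. Their defining factor Pou1f1 was well above background on no array, and the thyrotropin chain Tshb had a log2 fold change of 2.46 ± 1.93 (limma adjusted p = 0.733). Choroid plexus markers, 3 of 6 tested, ranged from 1.01 to 4.14 in TCDD and from 1.11 to 2.65 in control dams. Their sum had the same top arrays, which were those of Ttr (1.85 in TCDD 2 and 1.12 in control 4). Folr1 was highest in control 1 (-1.24) and Kcne2 in TCDD 3 (-2.61). Kcne2 averaged -2.70 in TCDD and -2.98 in control dams (limma adjusted p = 0.160). Its groups did not overlap, which held for 1 of the 3 markers tested, against 7.11% of all genes. The part of tissue sampled with each hypothalamus in the tanycyte gene values was not tested.

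The summed markers of the neighbouring glia and vessels moved less. Gfap, an astrocyte gene placed in the filament list above, was not in these sums. It was highest in control 4 (-0.67) and next in TCDD 2 (-1.14), the order of Nes. Ciliated ependymal markers, all 11 tested, summed to 8.46 to 10.0 in TCDD and 8.44 to 9.56 in control dams, with 7 above 0 and 4 below. Among them Mia, a small secreted protein, read -3.85, -3.44, -4.07 and -3.76 in TCDD 1 to 4, against -3.24, -3.17, -3.25 and -2.94 in control 1 to 4. Its groups did not overlap, which held for 1 of the 11 markers, against 7.11% of all genes. The log2 fold change of -0.63 ± 0.13 for Mia did not pass after adjustment (limma adjusted p = 0.146). Astrocyte markers, 8 of 8, ranged from 266 to 287 in TCDD and from 279 to 285 in control dams, with the smallest p for Agt (log2 fold change -0.09). Endothelial markers, 6 of 8, ranged from 4.33 to 4.59 in TCDD and from 3.71 to 4.62 in control dams (Pecam1, log2 fold change 0.16). Mural cell markers, 7 of 7, ranged from 2.53 to 3.27 in TCDD and from 2.68 to 3.12 in control dams (Abcc9, log2 fold change -0.14). Microglia markers, 7 of 7, reached at most 12.5 in TCDD and 12.6 in control dams (Itgam, log2 fold change -0.20).

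Red blood cell genes, 4 of 4 tested and all above 0, summed to 132, 229, 187 and 209 in TCDD 1 to 4, against 84.3, 84.9, 103 and 201 in control 1 to 4. Control 1, 2 and 3 were low and control 4 lay among the TCDD arrays. Hbb, a globin chain, had a log2 fold change of 0.90 ± 0.31 (unadjusted p = 0.0202, limma adjusted p = 0.339). Striatum and cortex markers, 5 of 9, ranged from 2.20 to 2.73 in TCDD and from 2.36 to 2.77 in control dams (Adora2a, log2 fold change 0.13), with the striatal marker Drd1 well above background on no array. Thalamus markers, 5 of 5, ranged from 1.71 to 2.41 in TCDD and from 1.39 to 2.23 in control dams (Plekhg1, log2 fold change 0.44).

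**Figure D4:**
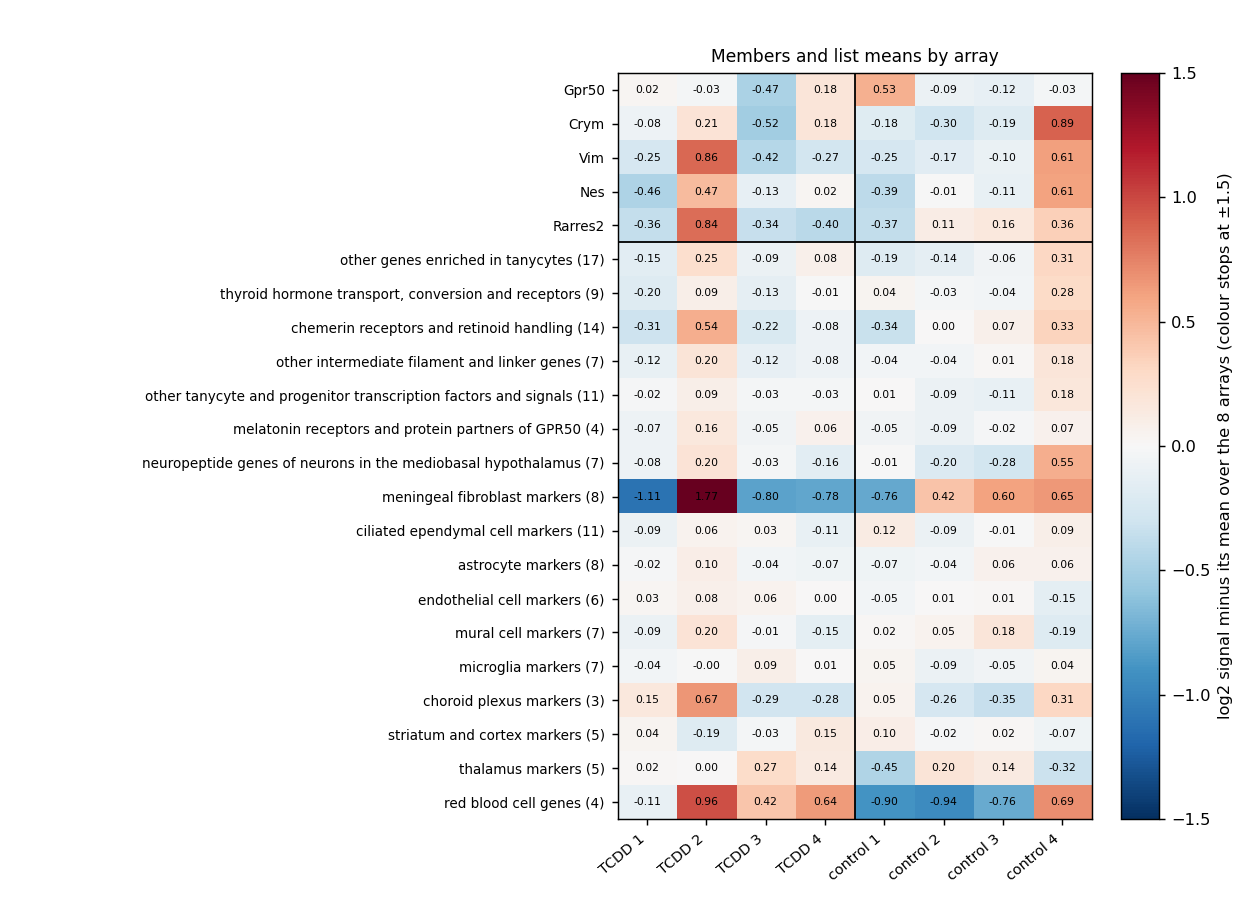
Log2 signal of 5 tanycyte genes and mean log2 signal of the lists (number of genes tested in brackets; the pituitary list, which spans a wider range, is left out), each minus its mean over the 8 arrays, with TCDD arrays left of control arrays. Vim (0.86), Rarres2 (0.84) and the meningeal markers (1.77) peak in TCDD 2, and Crym (0.89), Nes (0.61) and the mediobasal neuropeptides (0.55) peak in control 4.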

How the data were processed

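Hypothalamic RNA of 4 TCDD and 4 control dams was hybridised in 1 colour to Agilent rat arrays, 1 array per dam. The authors deposited linear spot intensities. Per the file headers they come from Agilent Feature Extraction 10.7.1.1, which subtracts background and corrects spatial trends within an array. Their deposited value table holds intensities with a median of 65.1 in every column. Its log2 values correlated with the scanner's at 0.999 or above, so its scale is linear, its direction is that of signal and its centring is not stated. It served as an alternative.

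The log2 values used were computed from the deposited processed signals, minus the 75th percentile of each array's 42877 non-control spots; 1377 control spots and spots marked as outliers were left out, and spots of a probe were averaged. A probe was kept if either group had it well above background in all 4 dams. Genes kept through a single group, among them Gpr50, Hr, Hydin, Lum and Tshb, have a sign that is not free of this filter. A gene was its probe with the highest mean signal. The test was limma 3.58.1 in R 4.3.3 (lmFit, eBayes, 2-sided, group as the only term) over 16572 genes, adjusted by Benjamini-Hochberg, with 0.05 as threshold. Correlations used all 40320 pairings of the 8 arrays in Python 3.11.15 with scipy 1.17.1. Both steps were checked on simulated data.

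Members and lists were chosen with earlier results of these data known. Named genes were the 6 members, neighbours named whatever their test (1 of which is not reported here), list members at an unadjusted p under 0.05 or else with the smallest p (for marker lists only the smallest p), and the 3 nearest genes of each member well above background on all 8 arrays. Of 167 list genes 165 were on the array, 2 of them under another name that current RefSeq symbols (GRCr8) resolved. Same-numbered arrays of the groups deviated together at 0.228, -0.0031, -0.046 and 0.104, so the numbers were not taken to pair the dams. Over all tested genes the highest such value between a TCDD and a control array was 0.331, for TCDD 2 with control 4. Alternatives concerned background correction (normexp, offset 50), scaling, the authors' table, filter, probe choice, variance model, array weights, a replicate block, and arrays left out.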

Additional observations from a re-analysis of the deposited data

Results flagged for a closer look

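Within each group of 4 dams, the highest or lowest array was set against its nearest neighbour as a share of the group's range. In 17 of the groups checked, an array's share passed Dixon's critical value. By chance about 1 in 20 independent groups would hold such an array. The 17 cannot be read against that share, because the groups share arrays and because the nearest genes were picked for following Vim, Nes, Rarres2 or Crym and so carry their far arrays by choice. TCDD 2 was far above the other TCDD arrays for Vim (share 0.864, log2 signal 1.12 against 0.01 for the next) and Rarres2 (0.953, -1.02 against -2.21). It was also far above for Rab13 (0.894), Ripk3 (0.860), Colec12 (0.923), Lamc1 (0.911) and Tnnt2 (0.891), the nearest genes of Vim and Rarres2. The same array stood out in the summed levels of meningeal fibroblast markers (0.975) and of chemerin receptors and retinoid handling (0.944).

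Control 4 was far above the other controls for Crym (0.896, log2 signal 3.86 against 2.79 for the next) and for its near neighbour Mgst1 (0.876), and far below them for the mural marker Abcc9 (0.898). It also stood out in the summed levels of the 5 tested tanycyte genes (0.940, a sum that is mostly the Crym signal), the mediobasal neuropeptides (0.886), the pituitary markers (0.937) and the red blood cell genes (0.840). Control 1 was far above the other controls for Gpr50 (0.855, log2 signal -4.88 against -5.43 for the next).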

How the results depend on the processing

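No tanycyte gene passed limma's test under any of the 19 alternatives, but the signs of small differences moved. Leaving out 1 array at a time gave log2 fold changes from -0.23 to 0.0055 for Gpr50, -0.23 to 0.17 for Crym, -0.34 to 0.15 for Vim, -0.21 to 0.15 for Nes, -0.12 to 0.13 for Mtnr1a, -0.33 to 0.090 for Gfap, -0.074 to 0.24 for Lhx2 and -0.064 to 0.10 for Sox2. Without TCDD 2 and control 4 together, Crym was at 0.084 and Sox2 at 0.040. With normexp Mtnr1a was at -0.12, Lhx2 at -0.016 and Sox2 at 0.0031. Mtnr1a was at -0.035 with quantile normalization, -0.0017 with median centring and -0.047 in the authors' table, Lhx2 at -0.0025 with quantile normalization and -0.00061 in the authors' table, and Sox2 at 0.046 with the mean of probes and 0.076 with array weights. Rax entered the test only without a filter (limma adjusted p = 0.846) and without control 3 (limma adjusted p = 0.782). Without control 3 it was kept through the control group alone. Its probe was well above background in 2 TCDD arrays, so no fold is given.

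Over all genes limma called 4 in the main setting, 21 with normexp, 26 with median centring, 34 with trend and robust variances, 99 with array weights (94 higher, 5 lower), 0 without a filter (2040 at an unadjusted p under 0.05), 0 with the replicate number as a block (2139), 0 without TCDD 2 and control 4 together (2034) and 0 to 8 without 1 array. The replicate block changed no tanycyte gene's call. Vim with Rarres2 stayed past the threshold under all 13 alternatives (r from 0.805 to 0.944). Without 1 array Vim with Nes ranged from 0.793 to 0.887, Nes with Rarres2 from 0.731 to 0.865, Crym with Nes from 0.468 to 0.813, Crym with Vim from 0.616 to 0.888, and the number of pairs past the threshold from 1 to 4, falling to 1 without TCDD 1, TCDD 2 or any single control. Crym with Nes passed with normexp (0.742), quantile normalization (0.746) and the authors' table (0.738), Crym with Vim in the authors' table (0.732) and centred on the group mean (0.730), and 5 pairs passed in the authors' table. The cause was not tested. Gpr50 and Rax lay near background, which limits both.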

Other observations

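Of the 17 tested genes in the list of other genes enriched in tanycytes, 6 had TCDD 2 and control 4 as the highest of all 8 arrays, as Vim and Nes did: Col23a1, Scn7a, Frzb, Adm, Ppp1r1b and Gja1. The share of all genes with these arrays highest was not counted. The genes given with values here were chosen after those values were seen. Frzb, a secreted Wnt antagonist, read -1.41, 0.05, -1.57 and -0.81 in TCDD 1 to 4, against -1.63, -1.56, -1.49 and 0.36 in control 1 to 4. Scn7a, a sodium channel of sodium-sensing glia, read -3.56, -2.13, -3.27 and -2.48 in TCDD 1 to 4, against -3.30, -3.22, -3.15 and -1.47 in control 1 to 4. Control 4 and TCDD 2 were the highest arrays for both genes, TCDD 4 came next, and the groups overlapped. The other 11 did not share that order. Cd59, a complement inhibitor, lay between 2.64 and 2.73 in TCDD and between 2.64 and 2.73 in control dams. Mest, an imprinted gene, was lowest of all arrays in TCDD 2 (0.73). Ntsr2, a neurotensin receptor of glia, ranged from 3.82 to 4.47 in TCDD and from 3.76 to 4.38 in control dams, and was highest in TCDD 1 and control 3.

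Dio3, the deiodinase that inactivates thyroid hormone, read -3.44, -3.76, -5.02 and -3.71 in TCDD 1 to 4, against -4.30, -3.78, -3.39 and -1.93 in control 1 to 4. It was highest in control 4 and lowest in TCDD 3, the extremes that Crym showed, and its log2 fold change of -0.63 ± 0.53 did not pass (limma adjusted p = 0.755).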
